A study of Canis lupus familiaris with 77 samples.

Results

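The miR-9 arms and miR-124 are miRNAs of nervous tissue, and their levels were examined here across 16 tissues of the dog. The rows were taken by name: cfa-miR-9, which is the 5p arm of miR-9, hsa-miR-9-3p, which is the opposite arm and carries its human name, and cfa-miR-124, which is the 3p arm of miR-124. These are 3 of the 650 miRNAs with at least 1 read. The row hsa-miR-124-5p, the opposite arm of miR-124, is not a member and is given only beside cfa-miR-124. Small RNA was sequenced from 5 untreated male Beagle dogs of 10 months of age, whose organs were flushed with phosphate buffered saline before they were collected. The 76 libraries used hold 5 samples of each of 14 tissues, which were brain, duodenum, jejunum, ileum, pancreas, liver, heart, skeletal muscle, kidney, lung, testis, thymus, bone marrow and plasma. Colon had 4 samples and sciatic nerve had 2. No group carried a genetic change or a treatment, and the region of the brain that was sampled is not given in the sources used here. The study's text describes the nerve samples both as parts of 1 pool and as 2 individual samples beside a pool. The deposited values also name a nerve pool that matches no label and was not used. Both labelled nerve libraries differed beyond sampling noise (chi-square over degrees of freedom of 170). Whether they came from separate dogs is not stated by the labels, so their spread may be technical. The labels carry no dog number, so samples of 1 dog in different tissues were treated as independent. RNA of the bone marrow was isolated with another reagent than that of the solid organs. Plasma RNA was isolated in its own way, from a fixed volume of fluid. The study reports low RNA integrity in both, and a lower percentage of mapped reads in bone marrow. These differences cannot be told apart from the tissue itself.

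A miRNA is cut from a hairpin that holds a 5p and a 3p arm, and one arm is usually kept while the other is largely lost. The kept arm is loaded into a protein complex and lowers the output of messenger RNAs that pair with its seed. miR-124 is known as a miRNA of differentiated neurons, where it holds down messages of non-neuronal cells. miR-9 is known from neural progenitors as well as from neurons and other neural cells, and both arms of its hairpin have known targets. The dog gene table of the assembly UU_Cfam_GSD_1.0 lists 3 miR-9 genes and 2 miR-124 genes. Since the genes of a family yield the same mature miRNA, each row sums over the copies.

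The libraries held from 157871 to 7896424 reads on miRNAs, with 785857 to 3217077 in brain, 971311 to 1164212 in nerve and only 162310 to 239023 in bone marrow. Levels are given as RPM, the reads of a miRNA scaled to 1e+06 reads on miRNAs in the library. A count of 0 allows a level of up to 3 reads, equal to between 0.380 and 19.0 RPM depending on the depth of the library. Duodenum libraries differed in their markers, as the summed RPM of the gut epithelium list ran from 5976 to 521080. Testis replicate 3 had 701 RPM of the germ cell list against 5609 to 109652 in the other testis libraries. All 20 tested rows of the neuronal list were higher in brain than in the mean of the other tissues (edgeR, adjusted p under 0.05). Of the 480 miRNAs tested, 45.2% received that call. The list was chosen with earlier results of these data known, so the count is no independent check of the label. In sciatic nerve the myelin miRNA cfa-miR-338 was present at 1424 and 2199 RPM, while cfa-miR-219-3p, a miRNA of oligodendrocytes, had 0 reads in both libraries. The other miR-219 rows were not all absent from nerve, with hsa-miR-219a-1-3p at 12.9 to 16.5 RPM and the cfa-miR-219-5p rows at 0 to 1.72 RPM.

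All 3 miRNAs were far above every other tissue in brain. cfa-miR-9 was one of the most abundant miRNAs there, ranking between 6 and 10 among the miRNAs of a brain library. Its level was 38322 RPM in the first brain library, 38121 in the second, 40348 in the third, 35340 in the fourth and 21762 in the fifth. The fifth library was the lowest and the other 4 lay close together. hsa-miR-9-3p measured 742, 462, 527, 819 and 304 RPM in the same order, so the fifth library was again the lowest. cfa-miR-124 measured 2971, 2466, 4442, 4574 and 2067 RPM, with the fifth library lowest here too. Together the 3 miRNAs took up 3.87% ± 0.832 (SD, n = 5) of the miRNA reads of brain.

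The brain libraries were not alike in other respects. The fifth library had the highest myelin list sum, with 3047 RPM against 965 to 2024 in the other brain libraries, and one of the lowest neuronal list sums, with 27672 RPM. Brain replicate 3 had a neuronal list sum of 27537 RPM, a gut epithelium list sum of 23998 RPM against 2637 to 3203 in the other brain libraries, and the highest cfa-miR-9. The part of these differences in the levels of the 3 miRNAs was not tested. In bulk tissue, fewer cells of a type and less RNA per cell cannot be told apart. From the lowest to the highest brain library cfa-miR-9 varied 1.85-fold, cfa-miR-124 2.21-fold and hsa-miR-9-3p 2.69-fold, which is small beside the distance from brain to the other tissues.

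**Figure D1:**
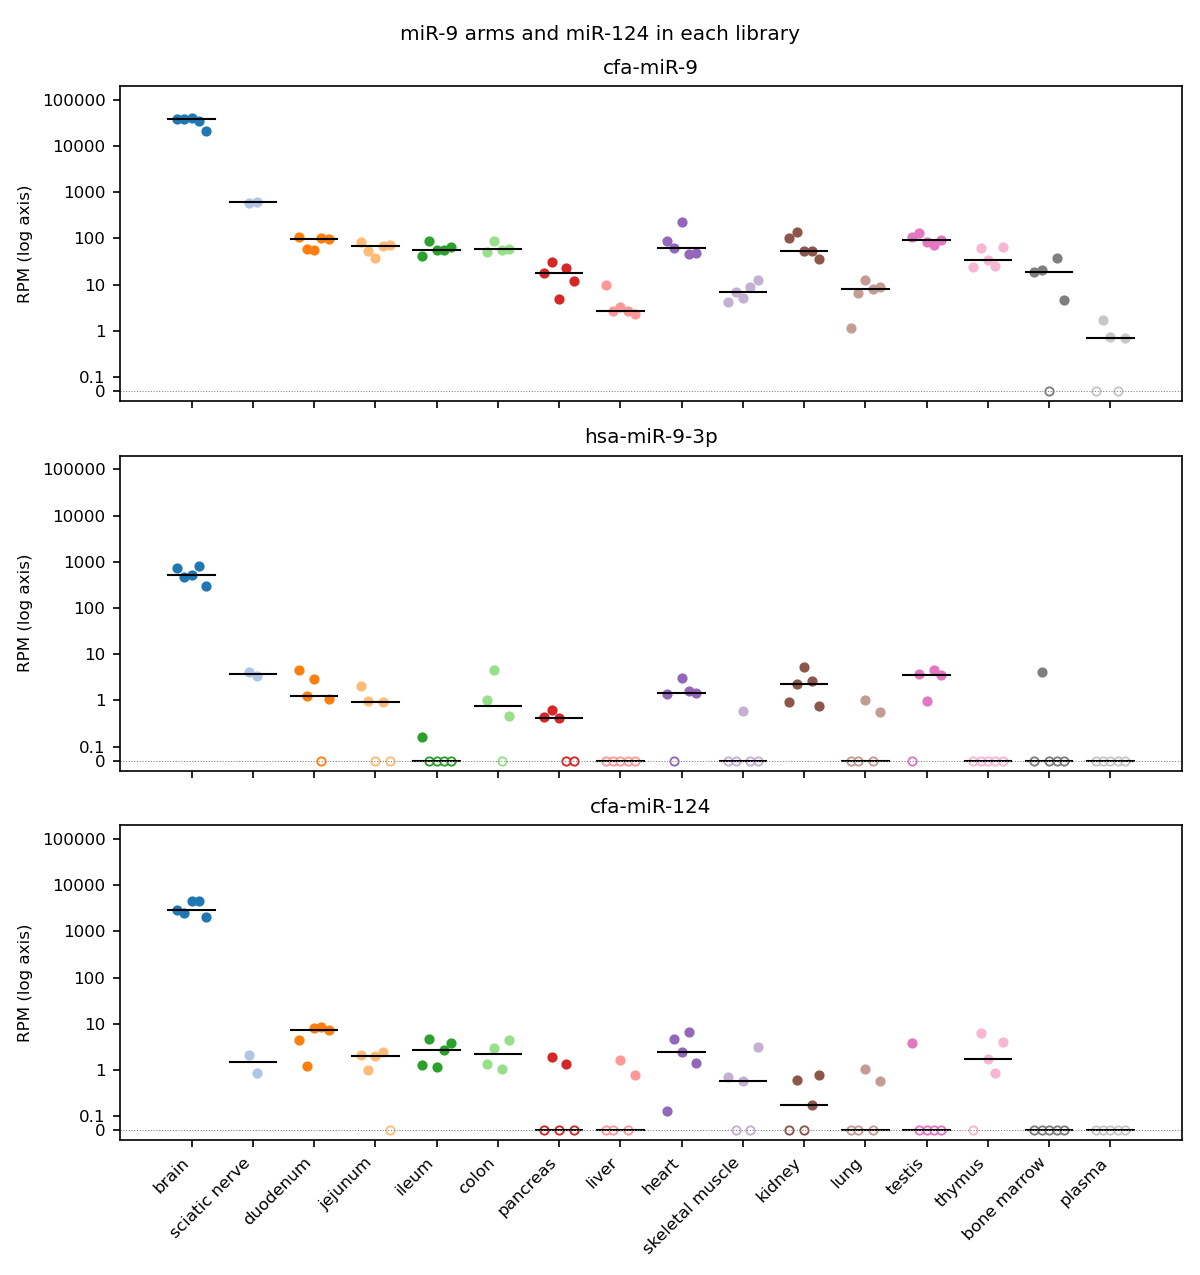
RPM of cfa-miR-9, hsa-miR-9-3p and cfa-miR-124 in each of the 76 libraries on a log axis, grouped by tissue. Each point is 1 library, open points on the dotted line have 0 reads, and the black bar is the median of the tissue. The 5 brain libraries lie between 21762 and 40348 RPM for cfa-miR-9, and both nerve libraries lie between brain and the remaining tissues for cfa-miR-9 but not for cfa-miR-124.

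The brain comparison asks which miRNAs mark the tissue. In the edgeR quasi-likelihood fit over all 16 tissues, cfa-miR-9 was 9.02 ± 0.26 higher in brain on the log2 scale than the mean of the log levels of the other tissues (SE, adjusted p = 1.84e-42). hsa-miR-9-3p (adjusted p = 7.47e-37) and cfa-miR-124 (adjusted p = 4.81e-36) also passed, and every brain library lay above each of the 71 other libraries for all 3. A call of higher in brain was not rare, as 45.2% of the 480 miRNAs tested received one. The 3 were chosen as neural miRNAs with earlier results of these data known. The count of 3 in 3 therefore says little, and the size of the difference describes the members without being independent support. As ratios of mean RPM, brain was 419-fold above the mean of the other tissue means for cfa-miR-9, 533-fold for hsa-miR-9-3p and 2142-fold for cfa-miR-124. The median in brain divided by the highest single library elsewhere, the measure of high enrichment used by the study, was 60.5 for cfa-miR-9, 97.1 for hsa-miR-9-3p and 347 for cfa-miR-124. With the TMM scaling of the fit these ratios were 27.7, 32.9 and 86.9. The highest library elsewhere was a sciatic nerve library for cfa-miR-9, kidney replicate 3 for hsa-miR-9-3p (5.42 RPM) and duodenum replicate 4 for cfa-miR-124 (8.56 RPM). Fitted changes of hsa-miR-9-3p and cfa-miR-124 are not quoted against all tissues, since some tissues had 0 reads in every library and the mean of the logs then depends on the prior count. Without plasma, bone marrow, liver and thymus, in each of which at least 1 of the 3 had no read, the edgeR changes were 8.23 ± 0.28 for hsa-miR-9-3p (adjusted p = 1.05e-30) and 10.36 ± 0.37 for cfa-miR-124 (adjusted p = 4.01e-30). That fit, also used below for nerve, gut and pancreas, was added after seeing the data. Its tissues were chosen by the members' own values.

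Sciatic nerve separated the miRNAs. cfa-miR-9 was present at 581 RPM (564 reads) in the first nerve library and 630 RPM (733 reads) in the second, where it ranked 82 and 70 among the miRNAs of the library. Both values lay above all 69 libraries of the 14 non-neural tissues, whose highest was a heart library at 227 RPM. hsa-miR-9-3p had 4 reads in each nerve library, which is 4.12 and 3.44 RPM and within the range of kidney, testis, duodenum and colon. cfa-miR-124 had 2 reads and 1 read, which is 2.06 and 0.859 RPM and within the range of gut, heart and thymus. So cfa-miR-9 in nerve was set apart from non-neural tissue, and cfa-miR-124 was not. The nerve libraries differed in markers of other tissues. Replicate 1 had 2019 RPM of the muscle list against 120 in replicate 2, 106 against 13.7 RPM of the liver list, 1304 against 37.8 RPM of the endocrine list and 25.7 against 0 RPM of the acinar list. cfa-miR-122, a liver miRNA, was called higher in nerve than in the mean of the log levels of the non-neural tissues (edgeR, adjusted p = 2.51e-06). cfa-miR-9 was 581 RPM in replicate 1 and 630 RPM in replicate 2, and the neuronal list sums were 799 and 660 RPM. The part of material from other tissues in the nerve levels was not tested.

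Against the non-neural tissues cfa-miR-9 was 4.19 ± 0.31 higher in nerve on the log2 scale (edgeR, adjusted p = 9.15e-19). The ratio of mean RPM over libraries was 13.3. hsa-miR-9-3p was called higher as well (edgeR, adjusted p = 0.000374), but the exact rank-sum test did not call it (adjusted p = 0.127), and both tests rest on 8 reads in nerve. The fitted change of cfa-miR-124 is not quoted, its adjusted p in edgeR was 0.585, and the mean RPM was 1.46 in nerve against 1.54 in the non-neural libraries. A call of higher in nerve was made for 26.7% of the 480 miRNAs tested, so 2 calls among 3 members is a small count. Fitted without plasma, bone marrow, liver and thymus, the edgeR changes were 3.58 ± 0.30 for cfa-miR-9 (adjusted p = 4.27e-14) and 1.96 ± 0.64 for hsa-miR-9-3p (adjusted p = 0.0113).

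Brain exceeded nerve for each member, though by very different amounts. The ratio of mean RPM was 57.5 for cfa-miR-9, and the fitted change was 5.11 ± 0.78 on the log2 scale (edgeR, adjusted p = 1.76e-07). For hsa-miR-9-3p the ratio was 151 and the fitted change 6.42 ± 0.84 (edgeR, adjusted p = 1.00e-08). For cfa-miR-124 the brain mean divided by the 3 pooled nerve reads was 2352, with a 95% Poisson interval of 805 to 11405 that covers the counting of the nerve reads only, and edgeR called it (adjusted p = 2.39e-09). All 5 brain libraries lay above both nerve libraries for each. Over all miRNAs tested, 27.1% were called higher in brain than in nerve. With 5 against 2 samples the exact rank-sum test cannot give a p below 0.0952, so it could call none of them.

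The balance of the miRNAs was also measured as a share of reads within each library. In reads of cfa-miR-9 plus cfa-miR-124, the share of cfa-miR-124 was 7.20%, 6.08%, 9.92%, 11.5% and 8.68% in the brain libraries. In nerve it was 0.353% (95% Wilson interval 0.0970 to 1.28) and 0.136% (0.0241 to 0.768). No nerve value came near a brain value, and the difference of the means was 8.42 percentage points. The two-sided exact permutation test over the 5 and 2 libraries gave p = 0.0476, the smallest p it can give, and p = 0.0952 after adjustment over the 4 share tests, so it did not pass. Against all other libraries with at least 20 such reads, the mean share was 8.66% ± 2.13 (SD, n = 5) in brain and 3.33% ± 3.17 (SD, n = 43) elsewhere. That difference of 5.33 points passed (two-sided exact permutation test, p = 0.00118, adjusted p = 0.00472). The test takes the 43 libraries as exchangeable, although 19 of them were gut and libraries of the same tissue are not independent. Its p therefore does not compare brain with tissues as units. By tissue, the mean share reached 7.69% in lung (1 library) and 6.59% in duodenum. The same limit applies to the arm test below. Wilson intervals cover counting error only, and reads without molecular identifiers are not independent molecules.

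Shares outside the nervous tissues were uneven. In the gut the share of cfa-miR-124 ranged from 0% to 12.2% with a median of 3.39% over 19 libraries, and pooled over all gut reads it was 4.24% (95% Wilson interval 3.502 to 5.12). In kidney it was lower, with 0%, 0.434%, 0%, 0.328% and 2.09%, pooled 0.559% (0.295 to 1.06). The heart libraries ran from 0.141% to 12.5%, where the highest rests on 4 cfa-miR-124 reads and its interval spans 4.97 to 28.1. Testis pooled to 0.362% (0.0640 to 2.02) and thymus to 4.11% (2.18 to 7.62). These differences between non-neural tissues were not tested.

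The share of the 3p arm in the reads of miR-9 behaved differently. It was 1.90%, 1.20%, 1.29%, 2.27% and 1.38% in the brain libraries and 0.704% (0.274 to 1.80) and 0.543% (0.211 to 1.39) in nerve. Both nerve values lay below all brain values, and the pooled share was 1.48% (95% Wilson interval 1.44 to 1.52) in brain and 0.613% (0.311 to 1.205) in nerve, so that the pooled counting intervals do not overlap. The difference of the library means, 0.982 percentage points, did not pass over libraries (two-sided exact permutation test, p = 0.0952, adjusted p = 0.127). Against the 43 other libraries with at least 20 miR-9 reads the mean share was 1.61% ± 0.459 (SD, n = 5) in brain and 1.71% ± 2.10 (SD, n = 43) elsewhere (two-sided exact permutation test, p = 0.913, adjusted p = 0.913). Pooled reads of the non-neural libraries gave 1.74% (1.44 to 2.10). Kidney had a pooled share of 2.62% (1.95 to 3.51) and ileum one of 0.175% (0.0308 to 0.982), and these pooled counting intervals do not overlap. The ileum share rests on 1 read of the 3p arm, and the intervals of its single libraries reach up to between 2.18% and 10.2%. Kidney libraries ran from 0.885% to 9.09%. This difference was not tested. A ratio of reads between arms is not a ratio of molecules, since each small RNA is ligated and amplified with its own efficiency.

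**Figure D2:**
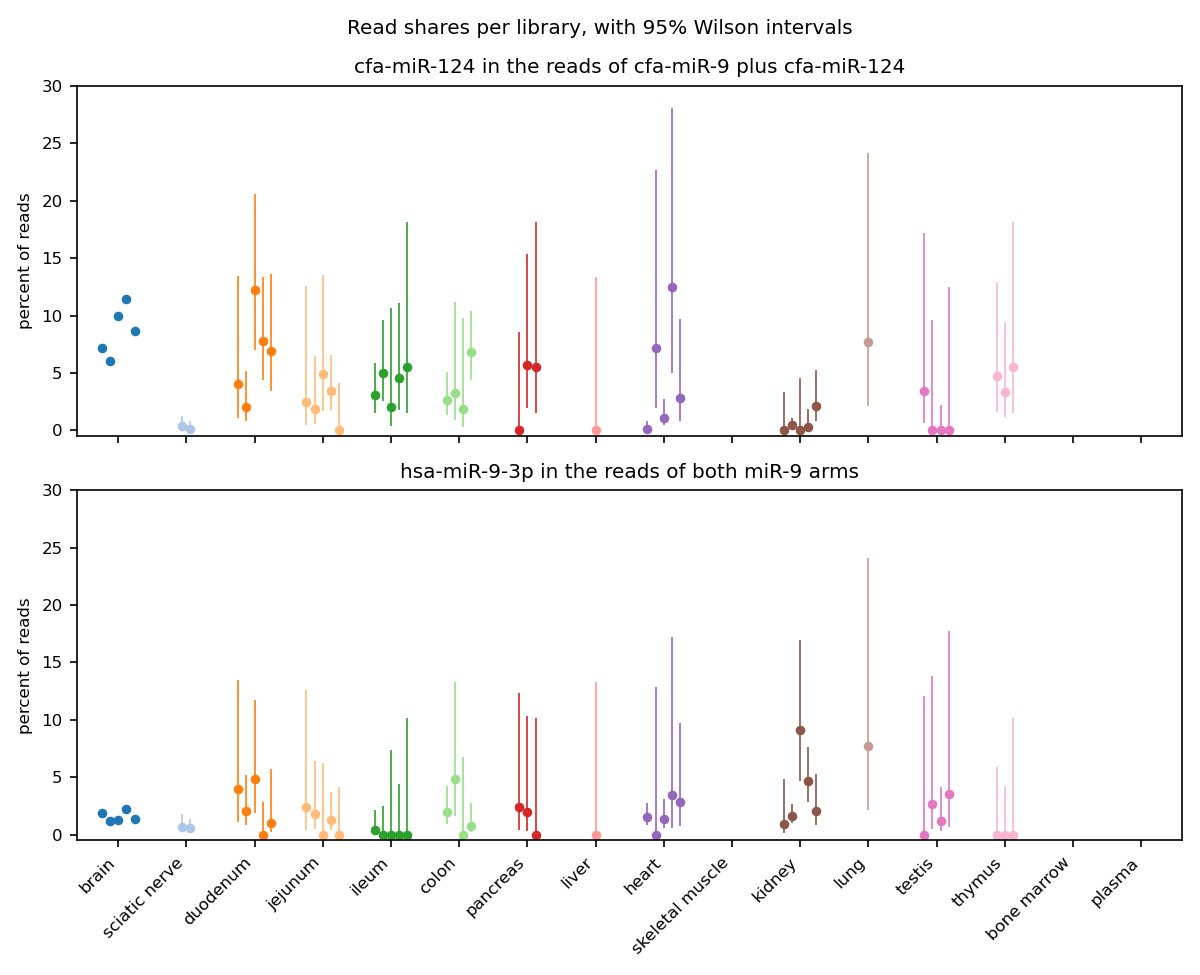
Share of cfa-miR-124 in the reads of cfa-miR-9 plus cfa-miR-124 (upper panel) and share of hsa-miR-9-3p in the reads of both miR-9 arms (lower panel), in percent, for each library with at least 20 such reads. Bars are 95% Wilson intervals and cover counting error only. In the upper panel brain lies between 6.08% and 11.5% and nerve at or below 0.353%, while in the lower panel brain lies within the spread of the other tissues.

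In the non-neural tissues cfa-miR-9 was low but widespread. It had reads in 66 of 69 libraries, with a median of 37.95 RPM. Duodenum had the highest median with 98.8 RPM, followed by testis with 94.0, jejunum with 68.7, heart with 61.8, colon with 58.0, ileum with 57.7 and kidney with 54.2. Below these came thymus with 34.8, bone marrow with 18.5, pancreas with 18.3, lung with 7.95, skeletal muscle with 7.03 and liver with 2.70 RPM, and plasma was last with 0.691. In this order the ranges of neighbours overlapped from duodenum down to liver, so the single steps are not set apart from the spread. Brain, nerve and duodenum were separated without overlap, and so were liver and plasma.

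Heart and kidney were uneven for cfa-miR-9. In heart the libraries held 89.9, 61.8, 227, 45.7 and 49.5 RPM, and replicate 3 was the highest of all libraries outside brain and nerve. The same library also had the highest neuronal list sum of the heart libraries, at 589 RPM against 197 to 309, the highest myelin list sum, at 296 RPM against 37.5 to 203, and the highest leukocyte list sum, at 871 RPM against 103 to 498. Its gut epithelium and liver list sums were the highest of heart too, at 1705 RPM against 799 to 1363 and at 6.22 RPM against 0 to 4.89. In kidney the libraries held 103, 137, 54.2, 52.5 and 36.1 RPM. The first 2 of these again had the highest neuronal list sums of kidney, at least 382 RPM against 214 to 302, and the highest myelin list sums, 109 and 91.4 RPM against 27.8 to 45.9. They were also the highest of kidney for the muscle list (227 and 259 RPM against 95.7 to 106), the leukocyte list (304 and 227 RPM against 119 to 201) and the smooth muscle and fibroblast list (32784 and 52096 RPM against 17759 to 22387). Whether these lists have a part in the cfa-miR-9 of those libraries was not tested.

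The minor members were near the limit of detection outside brain. hsa-miR-9-3p had a read in 31 of the 69 non-neural libraries and cfa-miR-124 in 40, and only 11 and 14 of the 71 libraries outside brain held more than 3 reads of them. hsa-miR-9-3p was highest in kidney by single library, where it had reads in all 5, with 0.917, 2.24, 5.42, 2.59 and 0.771 RPM. It had 0 reads in all libraries of liver, thymus and plasma. For hsa-miR-9-3p brain alone was set apart from its neighbour in the order of medians, and all other neighbours overlapped. The order of cfa-miR-124 was brain, duodenum (median 7.36 RPM), ileum (2.75), heart (2.49), colon (2.21), jejunum (1.96), thymus (1.71), sciatic nerve (1.46), skeletal muscle (0.586) and kidney (0.173), with medians of 0 in the rest. There too, only brain was set apart from its neighbour.

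The gut holds its own nervous system in the wall, so its 4 segments were compared with the other non-neural tissues. cfa-miR-9 was 1.98 ± 0.19 higher in gut on the log2 scale (edgeR, adjusted p = 3.02e-14) and 1.17 ± 0.19 higher without plasma, bone marrow, liver and thymus (edgeR, adjusted p = 4.53e-07). The ratio of mean RPM over libraries was smaller, 1.88, with a gut mean of 68.8 RPM and a mean of 36.6 elsewhere. Heart, testis and kidney had medians in the range of the gut segments or close to it. cfa-miR-124 passed as well (edgeR, adjusted p = 6.32e-07). Its mean was 3.20 RPM in gut and 0.904 RPM elsewhere, a ratio of 3.53, and 18 of 19 gut libraries lay above the median of the others, which was 0. Without plasma, bone marrow, liver and thymus its fitted change was 1.99 ± 0.40 (edgeR, adjusted p = 3.36e-05). hsa-miR-9-3p did not pass (edgeR, adjusted p = 0.13), with 1.05 RPM in gut and 0.801 elsewhere, and without plasma, bone marrow, liver and thymus its fitted change turned to -0.35 ± 0.39 (edgeR, adjusted p = 0.529). Over all miRNAs 31.9% of 480 were called higher in gut, so 2 calls in 3 members is a small count to read anything from. Other lists were higher in gut as well, with all 9 rows of the smooth muscle and fibroblast list and all 4 of the gut epithelium list called, and their part in the levels of the members was not tested. In duodenum cfa-miR-124 measured 4.52, 1.24, 7.93, 8.56 and 7.36 RPM on 2 to 11 reads a library.

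The opposite arm, hsa-miR-124-5p, stood in another proportion to cfa-miR-124 in gut than in brain. In brain it measured 22.9, 25.2, 22.6, 49.5 and 7.82 RPM, far below cfa-miR-124 in the same libraries. In jejunum it measured 35.8, 24.3, 20.3, 28.9 and 16.9 RPM, as high as in brain and above cfa-miR-124 in every library. Duodenum held 81.3, 21.1, 0, 0.778 and 5.26 RPM, ileum 23.2, 14.9, 19.8, 4.80 and 1.90 RPM, and colon 2.05, 1.52, 1.05 and 0.464 RPM. Nerve had 0 reads, and lung, with 1.13 to 3.49 RPM, was the one tissue outside brain and gut with a read in all libraries. In gut hsa-miR-124-5p was higher than in the other non-neural tissues (edgeR, adjusted p = 1.70e-13), with mean RPM of 16.0 against 0.407.

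As a share of the reads of both miR-124 arms, hsa-miR-124-5p made up 0.377% to 1.07% in brain and 91.2% to 100% in the 4 jejunum libraries with at least 20 such reads. Pooled, the share was 0.760% (95% Wilson interval 0.669 to 0.863) in brain and 83.9% (80.8 to 86.6) in gut. The gut was not uniform, since colon pooled to 34.8% (22.7 to 49.2) with 9.52% and 60.0% in its 2 libraries of enough reads, and duodenum replicates 3 and 4 held 7.93 and 8.56 RPM of cfa-miR-124 against 0 and 0.778 RPM of hsa-miR-124-5p. These shares were not tested. The duodenum libraries also differed in other lists. Replicates 1 and 2, where hsa-miR-124-5p was highest, had gut epithelium list sums of 328023 and 521080 RPM. Replicates 3 and 4, where it was at or below 0.778 RPM, had sums of 23479 and 5976 RPM, and their smooth muscle and fibroblast list sums were 618098 and 414892 RPM. The leukocyte list sums were 8193 and 10577 RPM in replicates 1 and 2 against 430, 271 and 1706 RPM in the others. In colon, with gut epithelium sums of 110891 to 219235 RPM, hsa-miR-124-5p did not exceed 2.05 RPM. In duodenum cfa-miR-124 was lowest in replicates 1 and 2 and highest in replicates 3 and 4. The part of tissue makeup in either arm was not tested. The sequences of the reads assigned to the row were not analysed here.

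**Figure D3:**
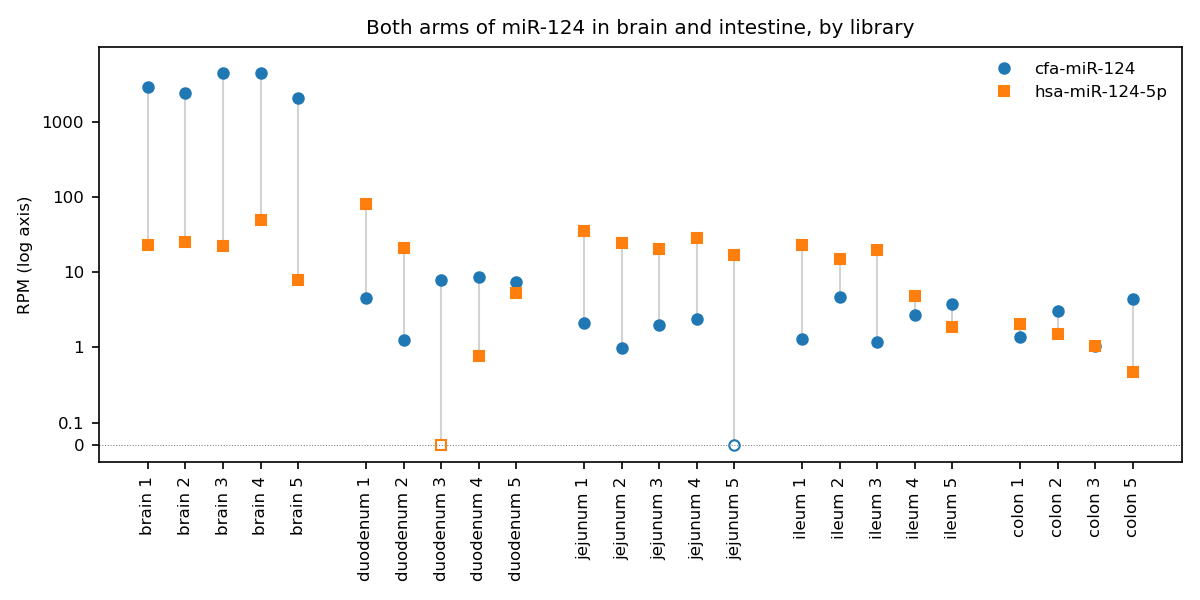
RPM of cfa-miR-124 (circles) and hsa-miR-124-5p (squares) by library in brain and the gut segments, on a log axis with libraries at 0 drawn as open symbols. In all 5 brain libraries cfa-miR-124 lies above hsa-miR-124-5p, and in all 5 jejunum libraries the order is the opposite.

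**Figure D4:**
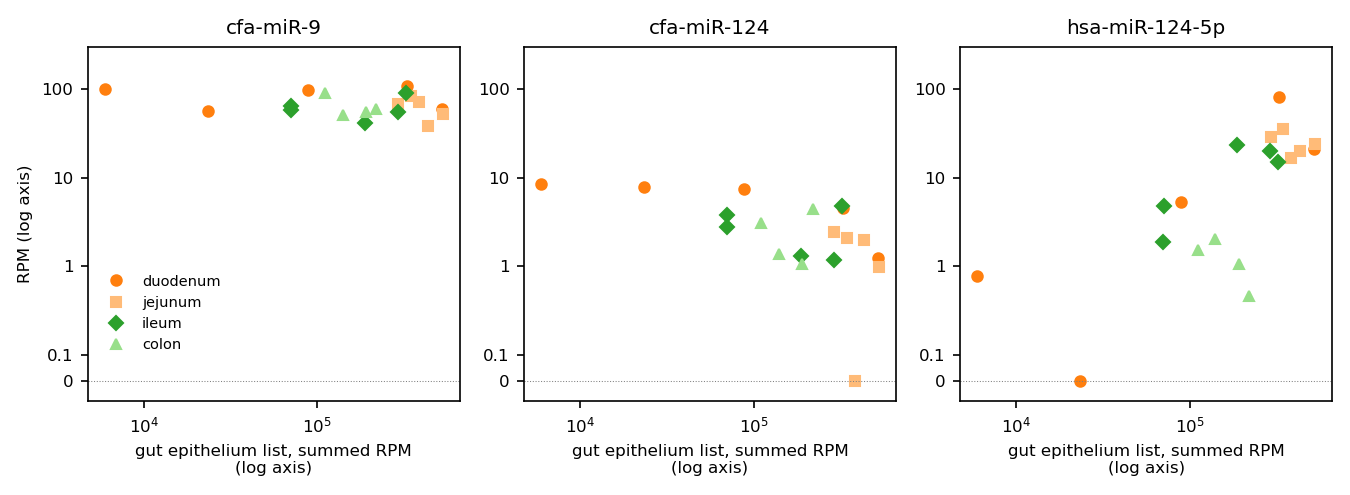
RPM of cfa-miR-9, cfa-miR-124 and hsa-miR-124-5p against the summed RPM of the gut epithelium list in the 19 gut libraries. The duodenum libraries span list sums from 5976 to 521080 RPM, and those with the lowest sums have the highest cfa-miR-124 of the gut, up to 8.56 RPM.

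Plasma held almost none of the miRNAs. cfa-miR-9 had 0, 3, 1, 0 and 1 reads in the plasma libraries, which is at most 1.70 RPM. edgeR called it lower in plasma than in the other non-neural tissues (adjusted p = 1.48e-10), and so did the exact rank-sum test (adjusted p = 4.68e-05). The mean of the other non-neural tissue means divided by the level from the 5 pooled plasma reads was 63.3, with a 95% Poisson interval of 27.1 to 195. hsa-miR-9-3p and cfa-miR-124 had 0 reads in 6440642 plasma reads. With 3 reads over the whole group as the floor, the brain mean was at least 1225-fold higher for hsa-miR-9-3p and at least 7093-fold higher for cfa-miR-124. The other non-neural tissues were at least 2.03-fold and 3.58-fold higher, and the exact rank-sum test called neither (adjusted p = 0.178 and adjusted p = 0.0566). By the 95% Poisson interval used for cfa-miR-9, the lower bounds were 997 and 5769 for brain and 1.65 and 2.91 for the non-neural tissues. The erythroid list took up 545235 to 816358 RPM of plasma, which leaves less RPM for other miRNAs. Its part in these ratios was not tested, nor was that of the separate isolation and low RNA integrity of plasma. Over all miRNAs 25.2% were called lower in plasma. Of the 20 tested neuronal rows 5 were called higher in plasma and 1 lower, against 28.3% and 25.2% of all miRNAs, and their median change was -0.77 against -0.56 over all. The summed neuronal level in plasma, 1670 to 4470 RPM, was carried mostly by cfa-miR-128, with a mean of 3223 RPM.

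Pancreas was examined because it holds endocrine cells, which share genes with neurons. Its libraries held 18.3, 31.5, 4.95, 23.3 and 11.8 RPM of cfa-miR-9, all below the median of the other non-neural libraries, 47.6 RPM. The fitted change of -0.38 ± 0.36 on the log2 scale did not pass (edgeR, adjusted p = 0.477). Without plasma, bone marrow, liver and thymus in the reference it was -0.96 ± 0.32 and passed (edgeR, adjusted p = 0.0134), so the call depends on the tissues compared. These tissues were left out after seeing the data, and plasma and liver had the lowest medians of cfa-miR-9. Leaving them out raises the reference, so the second call is no independent result. hsa-miR-9-3p and cfa-miR-124 had at most 1 and 3 reads in a pancreas library. cfa-miR-375, the miRNA of endocrine cells, had a median of 148274 RPM in the same tissue.

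Other miRNAs of nervous tissue place the members in context. Of the 22 rows of the neuronal list 20 were tested, and all 20 were called higher in brain, against 45.2% of all miRNAs. Their median change was 5.74 on the log2 scale against 0.13 over all miRNAs. In nerve 6 of the 20 were called higher and 1 lower, where 26.7% of all miRNAs were called higher and 15.2% lower, so the share called higher was near that of all miRNAs. The median change was 0.96 against -0.02 over all. The 6 were the 4 rows of miR-138 together with hsa-miR-212-3p and cfa-miR-383. cfa-miR-138a measured 290 and 327 RPM in nerve and 1206 to 9317 RPM in brain, so it was the most abundant row of the neuronal list in nerve. In gut 11 were called higher and 3 lower, against 31.9% and 17.3% of all miRNAs, with a median change of 1.11 against 0.10 over all. The other neuronal rows above 100 RPM in brain are given by their means. cfa-miR-128 had 34757 RPM in brain and 252 in nerve, and cfa-miR-132, a miRNA induced by neuronal activity, had 3971 and 70.2. cfa-miR-129 had 1358 and 13.05 RPM, cfa-miR-153 had 406 and 1.37, cfa-miR-212 had 495 and 3.26, cfa-miR-383 had 213 and 14.5, and cfa-miR-137 had 108 and 0.859. The further arms of these hairpins, hsa-miR-128-1-5p, hsa-miR-129-1-3p, hsa-miR-129-2-3p, hsa-miR-132-5p and hsa-miR-212-3p, ranged from 477 to 1179 RPM in brain and from 0.859 to 25.6 RPM in nerve.

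Some rows of the myelin list were higher in nerve than in brain. cfa-miR-338 had a mean of 888 RPM in brain and 1811 in nerve, and hsa-miR-338-5p had 189 and 629 RPM, so both were highest in nerve. hsa-miR-219a-1-3p, a low row named after its values were seen, was also highest in nerve, with 9.34 RPM in brain and 14.7 in nerve (brain against nerve, edgeR, adjusted p = 0.0355). cfa-miR-219-3p had 551 RPM in brain and 0 reads in nerve. The cfa-miR-219-5p rows had means of 19.6 and 38.4 RPM in brain and 1.37 and 0.515 RPM in nerve. The first of these had its highest tissue median in bone marrow, 37.8 RPM. Over the 6 myelin rows 5 were called higher in brain, with a median change of 3.35, where 45.2% of all miRNAs were called higher. In nerve 3 of the 6 were called higher and 1 lower, against 26.7% and 15.2% of all miRNAs. Of the 4 tested endocrine rows 3 were called higher and 1 lower in brain, against 45.2% and 28.1% of all, and 2 were called lower in nerve, against 15.2% of all. cfa-miR-7 had 255 RPM in brain and 0.859 in nerve, and cfa-miR-375 ranged from 30.5 to 127 RPM in brain and was 35.2 and 1303 RPM in the nerve libraries.

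**Figure D5:**
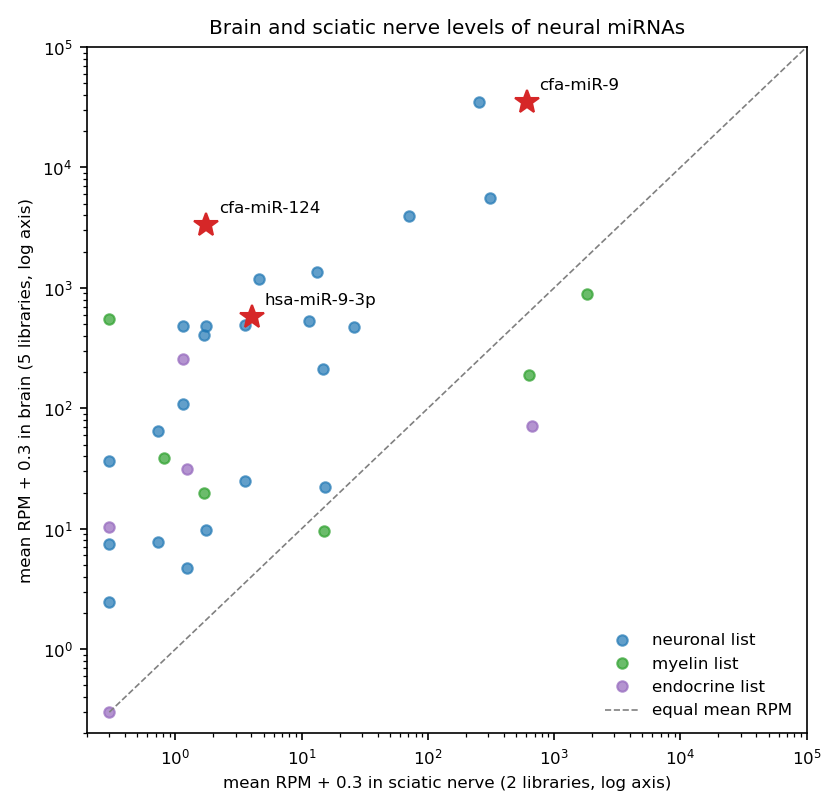
Mean RPM in brain (5 libraries) against mean RPM in sciatic nerve (2 libraries), with 0.3 RPM added for the log axes, for the rows of the neuronal, myelin and endocrine lists and for cfa-miR-9, hsa-miR-9-3p and cfa-miR-124 (stars). The dashed line marks equal levels, and the 3 stars lie on the brain side of it, with cfa-miR-124 the farthest of the 3.

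The miRNAs most alike in pattern were sought among 263 miRNAs with a tissue median over 100 RPM, by Pearson's r of log2(RPM + 1) over 76 libraries. These values describe libraries that share tissue and depth, and no p is given. For cfa-miR-9 they were cfa-miR-874 (r = 0.847), cfa-miR-132 (0.823) and cfa-miR-323 (0.817). For hsa-miR-9-3p they were cfa-miR-219-3p (0.896), cfa-miR-323 (0.879) and hsa-miR-431-3p (0.870). For cfa-miR-124 they were cfa-miR-219-3p (0.910), hsa-miR-431-3p (0.874) and hsa-miR-1298-5p (0.850). The members correlated with each other at 0.840 to 0.883 over all libraries. Over the 71 libraries outside brain the value fell to 0.567 between the miR-9 arms, 0.498 between cfa-miR-9 and cfa-miR-124, and 0.0896 between hsa-miR-9-3p and cfa-miR-124, where most values are near 0 reads. Outside brain other names came up. They were cfa-let-7e (0.654), cfa-miR-874 (0.652) and cfa-miR-145 (0.648) for cfa-miR-9, and cfa-miR-323 (0.594), cfa-miR-874 (0.469) and hsa-miR-874-5p (0.439) for hsa-miR-9-3p. For cfa-miR-124 they were cfa-miR-143 (0.533), hsa-miR-139-5p (0.530) and cfa-miR-145 (0.479), where cfa-miR-143 and cfa-miR-145 belong to the smooth muscle and fibroblast list.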

How the data were processed

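Small RNA libraries of 16 dog tissues were analysed as deposited. Per the study's methods, the authors clipped adaptors, aligned reads to CanFam 3.1 with OSA without mismatches, dropped reads at more than 10 locations, and gave each miRNA a count of the reads that overlapped at least 70% of its locus. The table uses dog, human and rat names and omits miRNAs with 0 reads, which were set to 0. The deposited RPM values are the authors' counts per total miRNA-aligned reads. Recomputing them gave a largest relative difference of 2.89e-09. Values were found for 76 of 77 labelled samples, and 1 row name, a nerve pool that matches no label, was not used. No pair of replicates agreed within sampling noise (chi-square over degrees of freedom of 10.3 or more).

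Tissues were compared with edgeR 4.0.16 in R 4.3.3 (quasi-likelihood test, TMM, filterByExpr, 1 fit over all libraries, 480 of 650 miRNAs, Benjamini-Hochberg adjustment, called at adjusted p under 0.05). A tissue contrast takes the mean of the log levels of the reference tissues. The SE given with an edgeR change is the size of the change divided by the square root of the F statistic of its test. Shares used libraries with at least 20 reads, 95% Wilson intervals from scipy 1.17.1 and exact permutation tests over all regroupings of the libraries. Alternatives were DESeq2 1.42.0, other size factors, no filter, the exact rank-sum test, and leaving out samples. The fits were tested on simulated data. Depth ran from 157871 to 7896424 reads, and intervals and floors cover counting error only. Named rows were the members, the opposite arm of miR-124, rows of the neuronal, myelin and endocrine lists with a tissue median above 100 RPM in brain or nerve, and the 3 miRNAs most alike to each member. Rows named outside that rule (the minor miR-138 rows, hsa-miR-219a-1-3p and cfa-miR-122) were named after their values were seen. The members and lists were chosen with earlier results of these data known. The mature sequences were not analysed here.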

Additional observations from a re-analysis of the deposited data

Results flagged for a closer look

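Of 48 groups of 4 or 5 libraries examined for a library far from the others, 11 had one. The rule's chance rate of about 1 in 20 does not apply near the floor, where a single read is flagged if the other libraries have none. The count of 11 is therefore not compared with chance. Brain replicate 5 was low for cfa-miR-9, at 21762 RPM. Heart replicate 3 was high for cfa-miR-9, at 227 RPM, and liver replicate 1 at 9.97 RPM. hsa-miR-124-5p was high in duodenum replicate 1, at 81.3 RPM.

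The other 7 were libraries with 1 or 2 reads in tissues otherwise at or near 0. For hsa-miR-9-3p these were ileum replicate 1 with 0.163 RPM, skeletal muscle replicate 3 with 0.586 RPM and bone marrow replicate 2 with 4.18 RPM. For cfa-miR-124 they were skeletal muscle replicate 5 with 3.17 RPM and testis replicate 1 with 3.77 RPM. The skeletal muscle value is 1 read in a library of 315775 reads, and replicates 1 and 3 of that tissue also had 1 read. For hsa-miR-124-5p they were skeletal muscle replicate 3 with 0.586 RPM and testis replicate 4 with 9.11 RPM.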

How the results depend on the processing

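Of the values recomputed under an alternative, 369 kept their direction and side of the threshold (values without a test moved by less than the spread), 6 lost the call, 1 gained one, 4 moved and 12 turned direction, none of which was called before or after. hsa-miR-9-3p in gut turned from 0.71 to -0.35 without plasma, bone marrow, liver and thymus. cfa-miR-124 in nerve, at a few reads, turned under that fit (edgeR, adjusted p = 0.999996), under the exact rank-sum test (adjusted p = 0.937) and without nerve replicate 1, and its adjusted p in edgeR with 1 nerve library left out was 0.479 to 1.00. In pancreas, hsa-miR-9-3p turned with RLE (edgeR, adjusted p = 0.472) and without replicate 4 or 5 (0.516 to 0.854 over all pancreas libraries left out in turn), and cfa-miR-124 with RLE (0.733), without the brain samples (0.664) and without replicate 1, 3 or 5 (0.741 to 1.00 over all left out in turn). Under the exact rank-sum test, brain against nerve was not called for cfa-miR-9 (log2 difference 5.84) or hsa-miR-9-3p (7.24), nor for cfa-miR-124 or hsa-miR-124-5p (adjusted p = 0.229 for each), because 5 against 2 samples cannot go below p = 0.0952 in an exact test. By that test hsa-miR-9-3p in nerve was not called either (2.12, adjusted p = 0.127). Without nerve replicate 2, hsa-miR-124-5p in brain against nerve had adjusted p = 0.0509 in edgeR. Without plasma, bone marrow, liver and thymus, an alternative added after seeing the data, cfa-miR-9 in pancreas was called lower (-0.96, edgeR adjusted p = 0.0134), and its range over all alternatives in adjusted p was 0.0134 to 1.00. The ratio of the brain median to the highest other library fell with TMM-scaled library sizes to 27.7 for cfa-miR-9, 32.9 for hsa-miR-9-3p and 86.9 for cfa-miR-124, and was 168 for cfa-miR-9 with nerve left out. Leaving out 1 library at a time, the log2 change in brain ranged from 8.84 to 9.09 for cfa-miR-9.

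Other scalings moved the share of calls that were higher. In brain it was 61.6% with TMM, 74.6% with RLE and 80.6% by library size alone, as the median change of all miRNAs went from 0.13 to 0.87 and 1.22. In brain against nerve it was 60.2% with TMM against 80.1% with RLE, 80.4% by library size and 77.0% with DESeq2. In nerve it was 63.7% against 76.7% by library size, in gut 64.8% against 51.7% with DESeq2, in plasma 52.9% against 41.9% by library size, and in pancreas 52.8% against 64.2% with RLE and 65.8% without the brain samples. No paired analysis was made, because the labels carry no dog number.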
